A study of Mus musculus with 10 samples.

Results

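The molecules described here are 8 genes with which endothelial cells slow, stop and pass leukocytes: the selectins Sele and Selp, the immunoglobulin-family ligands Icam1, Icam2, Vcam1 and Madcam1, and the junctional molecules Pecam1 and Cd99l2. They were chosen by gene symbol, with earlier results of these data known. All 8 were found among the 23284 symbols of the count table and passed the filter on low counts. RNA was sequenced from 3 endothelial populations of untreated wild-type C57BL/6 mice aged 6 to 8 weeks: lymph node lymphatic endothelium (LN-LEC, 4 libraries), lymph node blood endothelium (LN-BEC, 3 libraries) and diaphragm lymphatic endothelium (D-LEC, 3 libraries). Inguinal, axillary, brachial, cervical and mesenteric nodes were pooled, so that peripheral and mucosal nodes cannot be told apart, and each library came from the cells of several mice. All cells were sorted as CD45-negative and CD31-positive, and podoplanin separated LEC from BEC. CD31 is the product of Pecam1, so the sort itself required this molecule in all 3 populations.

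A leukocyte leaves the blood in steps. Selectins catch glycans on the moving cell and let it roll, chemokines then activate its integrins, the integrins bind ICAM, VCAM-1 or MAdCAM-1 and hold the cell still, and PECAM-1 and CD99-family molecules at the junctions take part in its passage through the wall. In lymph nodes these steps take place in high endothelial venules (HEV), a specialised blood vessel, whereas lymphatic endothelium carries cells that have already left the blood.

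The libraries held 22429940 to 48906070 counted fragments, so that 3 counts correspond to 0.0613 to 0.134 CPM, the count scaled to the library total. Log2 levels correlated at 0.973 to 0.987 between libraries of a population and at 0.870 to 0.936 between populations. The BEC marker genes summed to normalized counts of 176590 to 186337 in LN-BEC, 18068 to 21289.5 in LN-LEC and 12369 to 14124 in D-LEC. Most of the LN-LEC sum was Plvap, with a mean of 17247. In D-LEC, Emcn averaged 6320 and Plvap 3813. All 6 of the LEC marker genes that were tested were higher in both LEC populations than in LN-BEC. Ccl21a, also on the LEC list, had no counts in any library. LN-BEC replicate 3 and LN-LEC replicate 4 had the lowest mean correlation with the other libraries of their population (0.973 and 0.982), and counts of the 8 genes are also given without them.

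The stretch of 250 bases before the annotated start is shown for Madcam1, whose level ranged most widely, and for Sele and Selp, the selectin genes that are compared with each other in the results. The sequences were read from mm9, are written 5′ to 3′ on the strand of the gene, and are the same 250 bases as in RefSeq's GRCm38 promoters. Capitals mark matches to the NF-kB consensus on either strand. The windows are chr10:79127069-79127318 (+ strand) for Madcam1, chr1:165978115-165978364 (+ strand) for Sele and chr1:166045145-166045394 (+ strand) for Selp.
Madcam1: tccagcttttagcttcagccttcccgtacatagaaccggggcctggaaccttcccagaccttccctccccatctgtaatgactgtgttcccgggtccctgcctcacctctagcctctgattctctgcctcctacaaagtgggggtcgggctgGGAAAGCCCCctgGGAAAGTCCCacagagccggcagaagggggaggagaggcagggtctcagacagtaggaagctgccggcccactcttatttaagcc
Sele: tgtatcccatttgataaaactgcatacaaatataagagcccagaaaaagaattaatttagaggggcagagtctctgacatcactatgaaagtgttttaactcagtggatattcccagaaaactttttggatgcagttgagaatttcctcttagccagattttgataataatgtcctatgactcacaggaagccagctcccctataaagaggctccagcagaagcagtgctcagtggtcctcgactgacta
Selp: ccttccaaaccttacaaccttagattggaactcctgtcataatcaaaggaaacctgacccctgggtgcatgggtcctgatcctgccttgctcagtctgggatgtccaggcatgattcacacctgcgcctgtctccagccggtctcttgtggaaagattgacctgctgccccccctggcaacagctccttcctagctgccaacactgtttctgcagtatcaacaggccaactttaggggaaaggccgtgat
Among the 8 genes only the Madcam1 window held a match to the NF-kB consensus, and it held 2 that do not overlap, both read on the opposite strand, at bases -98 to -89 and -85 to -76 from the start. Of 19409 such windows of all genes, 8.14% held at least 1 match. A TATA box (TATAAA) stood at -49 to -44 of Sele and at -7 to -2 of Icam1, against 11.9% of all windows. GATAA on either strand was found in the windows of Icam2, Vcam1 and Sele, against 20.1% of all windows. The NF-kB pattern was GGG, then A or G, any 2 bases, 2 of C or T, and CC. These are exact matches of letters in a window of fixed length, and sites that differ from a pattern were not counted. Of the 8 starts, 7 coincide with a start in the GENCODE annotation, the exception being Icam2.

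Levels are given as normalized counts, the fragment counts over the DESeq2 size factor of the library, and a gene was called when its edgeR quasi-likelihood adjusted p was under 0.05 over the 15358 genes tested. Between the lymph node populations, 6 of the 8 genes were called: Vcam1 and Cd99l2 were higher in LN-LEC, and Madcam1, Sele, Selp and Pecam1 were higher in LN-BEC. Of all genes tested, 38.2% were called in this comparison, 19.8% with the higher level in LN-LEC and 18.4% in LN-BEC. Between the LEC populations 4 of the 8 were called, Icam1, Vcam1, Madcam1 and Selp, all higher in LN-LEC, against 45.8% of all genes, 24.0% with the higher level in LN-LEC and 21.7% in D-LEC. Between D-LEC and LN-BEC 7 of the 8 were called, all higher in LN-BEC, against 48.0% of all genes, 25.6% with the higher level in LN-BEC and 22.4% in D-LEC. The median log2 difference of the 8 genes was -0.71 for LN-LEC minus LN-BEC, 0.91 for LN-LEC minus D-LEC and -2.13 for D-LEC minus LN-BEC, against medians over all genes of -0.01, 0.03 and -0.05. Without the least typical libraries 5, 4 and 6 of the 8 genes were called in these comparisons, against 5425, 7098 and 7343 of all genes tested. That fit applied the filter anew to the remaining libraries. Its number of genes tested can therefore differ from 15358, and no share of all genes is given for it.

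**Figure D1:**
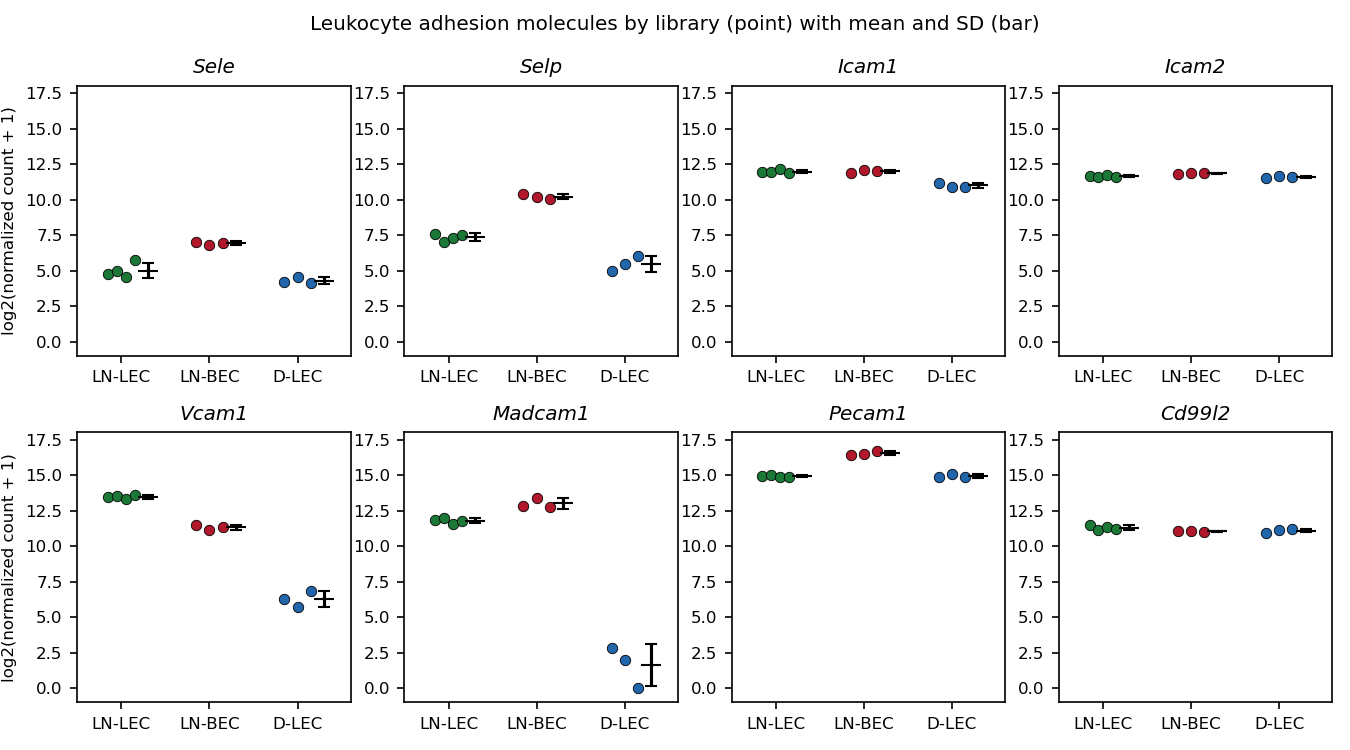
Each point is 1 library, placed by log2 of its normalized count plus 1 (vertical axis) under its population (LN-LEC, n = 4; LN-BEC, n = 3; D-LEC, n = 3), and the bar beside the points gives the mean and SD. Madcam1 and Vcam1 are far lower in D-LEC than in either lymph node population, whereas Icam2 and Cd99l2 lie close together in all 3.

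The selectins carry out the first step. Sele encodes E-selectin, which is made on activated endothelium, and Selp encodes P-selectin, which endothelial cells and platelets store in granules. Both lie on chromosome 1 of mm9, Sele at 165978365 to 165987808 and Selp at 166045395 to 166080157. Normalized counts of Selp were 1362, 1173 and 1044 in LN-BEC, 191, 126, 158 and 183 in LN-LEC, and 29.98, 43.0 and 65.1 in D-LEC. The 3 populations did not overlap, with LN-BEC highest and D-LEC lowest. For Selp, LN-BEC exceeded LN-LEC 7.14-fold (log2 fold change of LN-LEC minus LN-BEC -2.84, SE 0.19, edgeR adjusted p = 7.89e-08). LN-LEC exceeded D-LEC 3.52-fold (log2 fold change 1.82, SE 0.23, edgeR adjusted p = 2.46e-05). Of the 3438 exon bases of Selp, 438 are shared with the predicted gene Gm16548, and fragments there were not counted for either.

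Sele was the lowest of the 8 genes per kilobase of exon in LN-LEC and LN-BEC. Its normalized counts were 130.0, 109 and 124 in LN-BEC, 26.0, 30.6, 22.7 and 52.1 in LN-LEC, and 17.5, 23.0 and 16.5 in D-LEC. All LN-BEC libraries lay above all others, and the LEC populations overlapped, since LN-LEC replicate 3 fell below D-LEC replicate 2. The difference between LN-BEC and LN-LEC was 3.57-fold (log2 fold change of LN-LEC minus LN-BEC -1.83, SE 0.30, edgeR adjusted p = 2.48e-04). The difference between the LEC populations did not pass the threshold (log2 fold change 0.83, 95% interval 0.10 to 1.55, edgeR adjusted p = 0.0595), and it passed when LN-LEC replicate 3 was left out (adjusted p = 0.0355, with 0.0355 to 0.265 over all alternatives). Per kilobase of exon, Selp exceeded Sele by 7.15 to 9.09 times in the LN-BEC libraries, by 2.98 to 6.23 times in LN-LEC and by 1.45 to 3.35 times in D-LEC.

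The ICAM molecules bind the leukocyte integrins of the beta-2 family. Icam1, at 20820404 to 20833240 of chromosome 9, is raised by inflammatory cytokines, while Icam2, at 106238970 to 106243955 of chromosome 11, is known for steady expression on endothelium. Normalized counts of Icam1 were 3970.0, 3875, 4479.7 and 3842 in LN-LEC, 3784, 4454 and 4062 in LN-BEC, and 2330.0, 1922 and 1926 in D-LEC. The lymph node populations overlapped and both stood above every D-LEC library. LN-LEC and LN-BEC differed by -0.01 on the log2 scale (95% interval -0.21 to 0.20, edgeR adjusted p = 0.972), while LN-LEC exceeded D-LEC by 1.98-fold (log2 fold change 0.98, SE 0.10, edgeR adjusted p = 2.08e-06). LN-BEC exceeded D-LEC by 1.99-fold (log2 fold change of D-LEC minus LN-BEC -0.99, SE 0.10, edgeR adjusted p = 2.71e-06).

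Icam2 varied least between populations among the 4 immunoglobulin-family ligands. Its normalized counts were 3223, 3135, 3394 and 3023 in LN-LEC, 3572, 3763 and 3814 in LN-BEC, and 2915, 3298 and 3124 in D-LEC. The LN-BEC libraries lay above all others and the LEC populations overlapped. LN-BEC exceeded D-LEC by 1.19-fold (log2 fold change of D-LEC minus LN-BEC -0.25, SE 0.08, edgeR adjusted p = 0.0238), a call that was lost when LN-BEC replicate 2 or 3 or D-LEC replicate 1 or 3 was left out (edgeR adjusted p from 0.0509 to 0.0824). The difference of LN-LEC from LN-BEC missed the threshold (log2 fold change -0.20, 95% interval -0.37 to -0.04, edgeR adjusted p = 0.0544). It passed in 7 of 20 alternatives, among them DESeq2 (adjusted p = 0.0144, with 0.0144 to 0.991 over all alternatives). Per kilobase of exon, Icam1 stood at 0.554 to 0.594 of Icam2 in LN-LEC and 0.476 to 0.532 in LN-BEC, against 0.262 to 0.360 in D-LEC. Downstream of Icam1 on chromosome 9 lie Icam4 and Icam5. Icam5 averaged a normalized count of 13.3 in LN-BEC, above LN-LEC (log2 fold change of LN-LEC minus LN-BEC -3.98, edgeR adjusted p = 0.00257) at 0.633. The size of that difference rests on 3 raw counts in LN-LEC in all. Icam4 averaged 3.60 to 6.98 and was called in no comparison.

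VCAM-1 binds the alpha-4 beta-1 integrin, and MAdCAM-1 binds alpha-4 beta-7, the integrin of cells that home to the gut. Vcam1 lies on chromosome 3 at 115812938 to 115832606. Its normalized counts were 11261, 11640.2, 10206 and 12659.8 in LN-LEC, 2884, 2233 and 2584 in LN-BEC, and 75.0, 52.0 and 113 in D-LEC. The populations did not overlap, and LN-LEC was the highest. LN-LEC exceeded LN-BEC 4.50-fold (log2 fold change 2.17, SE 0.18, edgeR adjusted p = 1.66e-06) and D-LEC 142-fold (log2 fold change 7.15, SE 0.24, edgeR adjusted p = 5.51e-10). LN-BEC in turn exceeded D-LEC by 31.6-fold (log2 fold change of D-LEC minus LN-BEC -4.98, SE 0.23, edgeR adjusted p = 5.12e-09).

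Madcam1, at 79127319 to 79131281 of chromosome 10, showed the widest range of the 8 genes. Its normalized counts were 7225, 10933 and 7028 in LN-BEC, 3694, 4027, 2993 and 3512 in LN-LEC, and 6.25, 3.00 and 0 in D-LEC, where the raw counts were 5, 3 and 0. LN-BEC was highest, LN-LEC lay below it without overlap, and D-LEC was at or close to 0. LN-BEC exceeded LN-LEC 2.34-fold (log2 fold change of LN-LEC minus LN-BEC -1.23, SE 0.20, edgeR adjusted p = 6.88e-04). The fitted log2 fold change of LN-LEC minus D-LEC was 10.32 (SE 0.41, edgeR adjusted p = 8.21e-09), a size that rests on 8 counts in D-LEC in all. Per kilobase of exon, Madcam1 was 0.664 to 0.828 of Vcam1 in LN-LEC and 6.00 to 11.7 times Vcam1 in LN-BEC, so that which ligand was higher turned round between the lymph node populations.

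**Figure D2:**
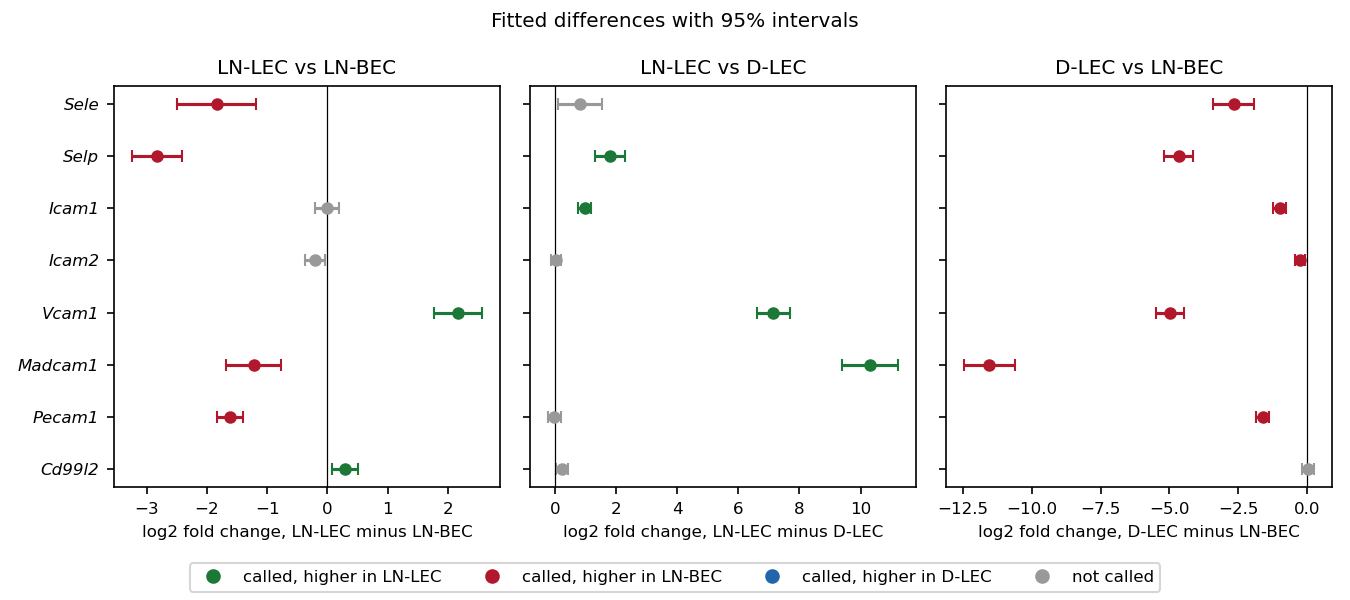
Points are fitted log2 fold changes and bars their 95% intervals for the 8 genes (rows) in the 3 comparisons (panels, each with its own scale), coloured by the population in which a called gene was higher and grey where it was not called. No gene was called higher in D-LEC, and the sign of Vcam1 in LN-LEC vs LN-BEC is opposite to that of the selectins, Madcam1 and Pecam1.

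Pecam1 and Cd99l2 act at the junctions. Pecam1, at 106515532 to 106576595 of chromosome 11, was the highest of the 8 genes per kilobase of exon in every population, and since CD31 defined the sort its presence is no result. Normalized counts were 31878, 32988, 30334 and 29252 in LN-LEC, 30479, 35402 and 29395 in D-LEC, and 88719, 94025 and 106777 in LN-BEC. The LEC populations overlapped and LN-BEC lay above both. LN-LEC and D-LEC differed by -0.02 on the log2 scale with a 95% interval of -0.24 to 0.20. Cd99l2, at 68673235 to 68746024 of chromosome X, encodes a relative of CD99, and no row under the symbol Cd99 was found in the count table.

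Normalized counts of Cd99l2 were 2909.5, 2299, 2612 and 2354 in LN-LEC, 2152, 2145 and 1994 in LN-BEC, and 1980.2, 2226 and 2314 in D-LEC. LN-LEC lay above LN-BEC without overlap and overlapped with D-LEC. The excess of LN-LEC over LN-BEC was 1.22-fold (log2 fold change 0.29, SE 0.10, edgeR adjusted p = 0.0287). That call was lost when LN-LEC replicate 1 or 3 or any LN-BEC library was left out (edgeR adjusted p from 0.0554 to 0.0959). D-LEC and LN-BEC differed by 0.06 on the log2 scale (95% interval -0.17 to 0.28, edgeR adjusted p = 0.680).

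Set side by side per kilobase of exon, the 8 genes made up a different mixture in each population. Pecam1 took 46.0% ± 1.15 (SD, n = 4) of their summed level in LN-LEC and 70.0% ± 3.62 (n = 3) in LN-BEC, against 69.6% ± 1.71 (n = 3) in D-LEC. Vcam1 took 16.5% ± 1.53 in LN-LEC and 1.83% ± 0.346 in LN-BEC, against 0.174% ± 0.0762 in D-LEC. Madcam1 took 12.2% ± 1.15, 14.2% ± 3.44 and 0.0157% ± 0.0166 in the same order. The next level below Pecam1 was thus that of Vcam1 in LN-LEC and of Madcam1 in LN-BEC, against of Icam2 in D-LEC, where Icam2 took 19.8% ± 0.969. Within LN-LEC the per-kilobase means ran from Pecam1 (9414) through Vcam1 (3367), Icam2 (2797), Madcam1 (2505), Icam1 (1592), Cd99l2 (707) and Selp (47.9) to Sele (11.3), and the SDs of Icam2 (137) and Madcam1 (304) reach one another. In LN-BEC the order was Pecam1 (29200), Madcam1 (5912), Icam2 (3254), Icam1 (1615), Vcam1 (755), Cd99l2 (582), Selp (347) and Sele (41.6). In D-LEC it was Pecam1 (9609), Icam2 (2725), Icam1 (811), Cd99l2 (604), Vcam1 (23.5), Selp (13.4), Sele (6.52) and Madcam1 (2.17), and the SDs of Vcam1 (9.05) and Selp (5.16) reach one another there.

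**Figure D3:**
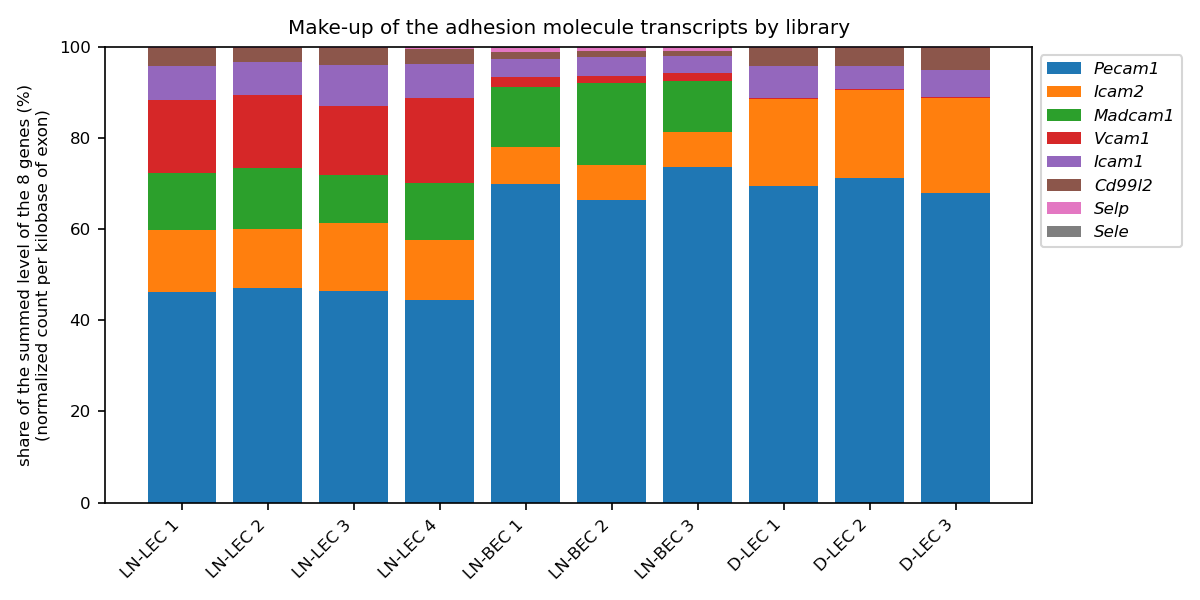
Each bar is 1 library and its segments are the percent that each gene contributed to the summed level of the 8 genes (normalized count per kilobase of exon, linear axis from 0 to 100). Vcam1 and Madcam1 segments are both visible in LN-LEC, Madcam1 is the larger of the pair in LN-BEC, and neither is visible as more than a line in D-LEC.

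Blood endothelial and HEV genes were also counted in the LN-LEC libraries, and their levels are given beside the genes that were higher in LN-BEC. In LN-LEC the mean was 42.4% of the LN-BEC mean for Madcam1, 27.2% for Sele and 13.8% for Selp. The HEV genes Glycam1, Chst4 and Fut7 stood at 3.00%, 0.888% and 1.13%, and 6 of the 7 BEC marker genes stood between 1.35% and 3.77%, the exception being Plvap at 44.7%. The leukocyte marker genes summed to normalized counts of 575 to 720 in LN-LEC and 1084 to 1659 in LN-BEC, against 151 to 284 in D-LEC. Sums of the reticular fibroblast marker genes were 5023 to 9569 in LN-LEC, 2996 to 10144 in LN-BEC and 2704 to 7838 in D-LEC. Sums of different lists are not compared with each other. In LN-LEC, Dcn alone averaged 3384.5 and Cxcl13 2030, while Pdgfra averaged 186 and Pdgfrb 91.6. The platelet list, which matters because platelets also hold P-selectin, summed to 8732 to 12248 in LN-LEC and 1831 to 2051 in LN-BEC, against 176 to 333 in D-LEC. The LN-LEC sum was mostly Itga2b, with a mean of 9631 against 333 in LN-BEC, and Gp1ba was also called for LN-LEC. Pf4 (864 in LN-LEC, 1531 in LN-BEC) and Ppbp (2.36 and 20.8) were called for LN-BEC, and Gp9 and Gp6 were at 0 in every LN-LEC library. In D-LEC, muscle genes summed to 1006 to 1505 and mesothelium genes to 561 to 1746, against at most 32.5 and 132 in the lymph node libraries. The part of other cells in the levels of the 8 genes was not tested, and in bulk RNA fewer cells that express a gene cannot be told apart from less RNA per cell.

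**Figure D4:**
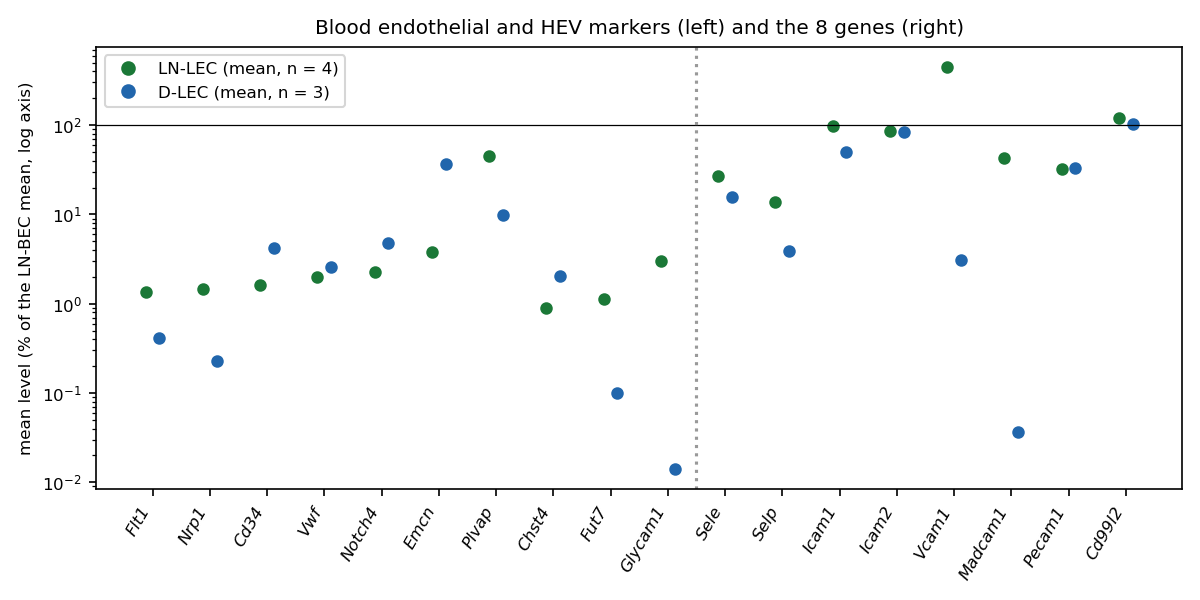
Points are mean levels in LN-LEC (n = 4) and D-LEC (n = 3) as a percent of the LN-BEC mean (log axis), for BEC and HEV marker genes left of the dotted line and the 8 genes right of it. In LN-LEC, Madcam1 at 42.4% lies well above Glycam1 at 3.00%, and Vcam1 is the only gene shown far above 100%.

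Of the other endothelial adhesion and transmigration molecules, 29 of 30 listed genes were in the table and tested. Their counts, and those of the lists that follow, stand against the shares of all genes called: 19.8% for LN-LEC and 18.4% for LN-BEC between the lymph node populations, 24.0% for LN-LEC and 21.7% for D-LEC between the LEC populations, and 22.4% for D-LEC and 25.6% for LN-BEC in the last comparison. Between the lymph node populations 7 had the higher level in LN-LEC, 16 in LN-BEC and 6 were not called, with a median log2 difference of -0.82. Between the LEC populations 10 had the higher level in LN-LEC, 10 in D-LEC and 9 were not called (median -0.26), and between D-LEC and LN-BEC 7 had it in D-LEC, 16 in LN-BEC and 6 were not called (median -0.68). Alcam, the ligand of CD6 on T cells, averaged a normalized count of 19809 ± 2388 (SD, n = 4) in LN-LEC and 765 ± 402 (n = 3) in LN-BEC, against 631 ± 101 (n = 3) in D-LEC. As with Vcam1, LN-LEC exceeded LN-BEC, here 26.2-fold (log2 fold change 4.71, SE 0.35, edgeR adjusted p = 5.91e-06). The junctional molecules Jam2 and Jam3 went in opposite directions: for Jam3, LN-LEC exceeded LN-BEC 2.58-fold (log2 fold change 1.37, SE 0.10, edgeR adjusted p = 1.20e-07), and for Jam2, LN-BEC exceeded LN-LEC 62.0-fold (log2 fold change of LN-LEC minus LN-BEC -5.95, SE 0.24, edgeR adjusted p = 9.81e-09).

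Like Madcam1, the chemokine-binding receptor Darc (now Ackr1) and the mucin Glycam1 were highest in LN-BEC and lowest in D-LEC. Darc had normalized counts of 6115, 8201 and 7312 in LN-BEC, 328 to 401 in LN-LEC and 2.47 to 8.75 in D-LEC. The amine oxidase Aoc3, also called vascular adhesion protein, averaged 498 in LN-BEC, 55.1 in LN-LEC and 10.9 in D-LEC. Cd44, which can carry glycans that E-selectin binds, differed between LN-LEC and D-LEC (log2 fold change 4.43, SE 0.37, edgeR adjusted p = 1.17e-05), and between the lymph node populations its difference was 0.54 with a 95% interval of -0.14 to 1.22.

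**Figure D5:**
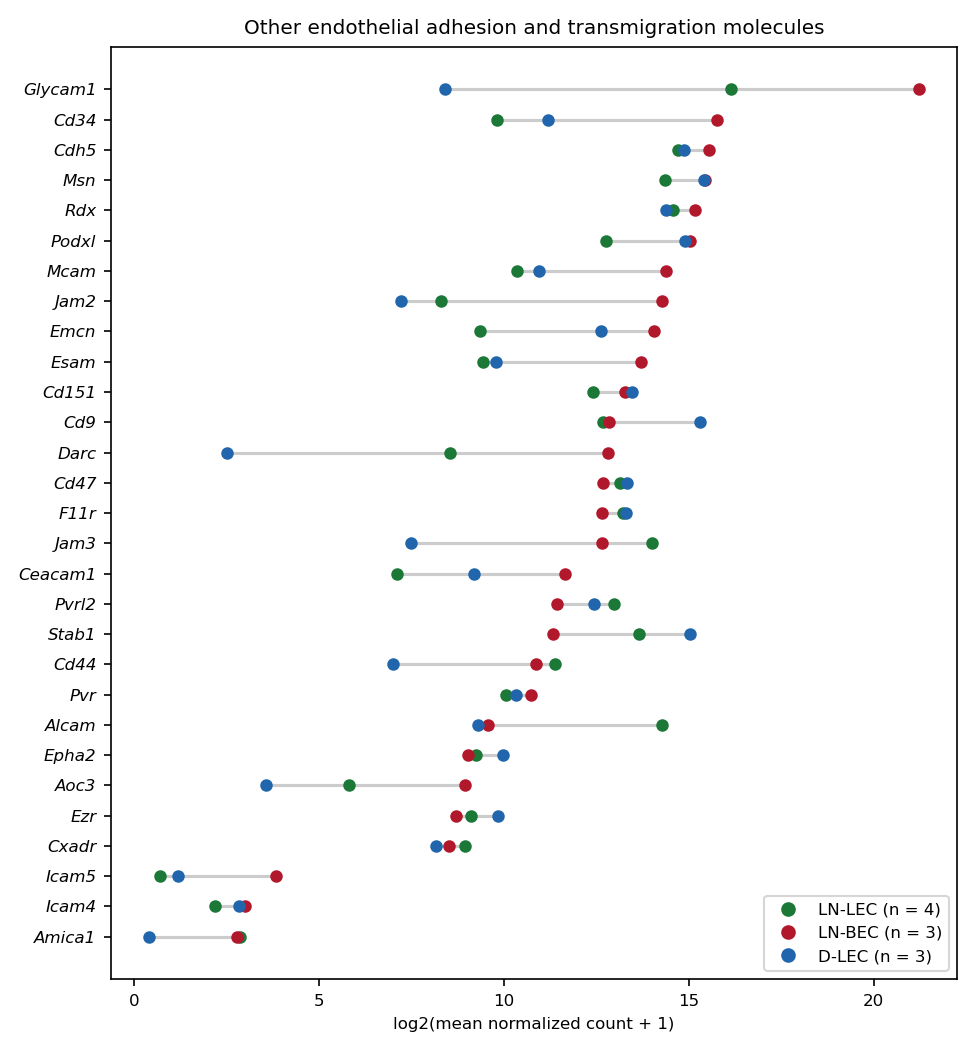
Each row is 1 of 29 genes and each point a population mean, placed by log2 of the mean normalized count plus 1, with a grey line from the lowest to the highest. Rows are ordered by the LN-BEC mean, and Alcam and Jam3 are among the genes with the LN-LEC point farthest to the right.

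Among receptors on leukocytes that bind these molecules, the highest mean normalized count after the widely expressed Itgb1 was that of Itga4, 293 in LN-BEC. Of 13 listed, 11 were tested. Between the lymph node populations 0 had the higher level in LN-LEC, 5 in LN-BEC and 6 were not called, between the LEC populations 3 had it in LN-LEC, 2 in D-LEC and 6 were not called, and between D-LEC and LN-BEC 2 had it in D-LEC, 6 in LN-BEC and 3 were not called. Itgb7, the partner of alpha-4 in the receptor of MAdCAM-1, averaged normalized counts of 31.2 in LN-LEC and 80.4 in LN-BEC, against 5.71 in D-LEC. Itga4 averaged 141, 293 and 93.0 and Selplg, the ligand of P-selectin, 9.01, 50.5 and 7.02 in the same order. Itgb2, the beta-2 chain of the integrins that bind the ICAM molecules, was instead highest in D-LEC, at a mean of 116, against 34.8 in LN-BEC (log2 fold change of D-LEC minus LN-BEC 1.73, SE 0.32, edgeR adjusted p = 5.19e-04) and 19.8 in LN-LEC (log2 fold change of LN-LEC minus D-LEC -2.53, SE 0.31, edgeR adjusted p = 1.29e-05). Median log2 differences of the tested receptors were -1.36 for LN-LEC minus LN-BEC, 0.60 for LN-LEC minus D-LEC and -1.64 for D-LEC minus LN-BEC. Of the 14 leukocyte marker genes, 8 were called between the lymph node populations, all for LN-BEC, while between D-LEC and LN-BEC 10 were called for LN-BEC and 1, Csf1r, for D-LEC.

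A list of 17 cytokine receptors and transcription factors known to induce endothelial adhesion molecules was tested in full. In LN-LEC against D-LEC, 13 had a higher level in LN-LEC (24.0% of all genes did), 1 had a higher level in D-LEC (21.7% of all genes) and 3 were not called, with a median log2 difference of 1.007 against 0.03 over all genes. Between D-LEC and LN-BEC 14 were higher in LN-BEC (25.6% of all genes), 2 in D-LEC and 1 was not called, with a median of -1.04, whereas between the lymph node populations 6 had the higher level in LN-LEC, 8 in LN-BEC and 3 were not called, with a median of -0.12. The non-canonical NF-kB subunits Relb and Nfkb2 exceeded their D-LEC level in LN-LEC 6.66-fold and 6.38-fold (log2 fold changes 2.74 and 2.67, edgeR adjusted p = 5.23e-10 and 6.70e-11). Il1r1, the receptor of interleukin-1, had a level in LN-BEC 5.09-fold that of LN-LEC (log2 fold change of LN-LEC minus LN-BEC -2.35, SE 0.14, edgeR adjusted p = 1.65e-08). Nkx2-3, a homeobox factor known for its need in Madcam1 expression, had normalized counts of 159.9, 161 and 95.4 in LN-BEC, 19.5, 1.27, 3.40 and 7.54 in LN-LEC, and 0, 0 and 2.47 in D-LEC. Its LN-BEC libraries lay above all others, while LN-LEC and D-LEC overlapped.

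P-selectin is stored with von Willebrand factor in Weibel-Palade bodies, and 12 genes of these granules and their release were listed. Between the lymph node populations 4 had the higher level in LN-LEC, 4 in LN-BEC and 4 were not called. Between the LEC populations the counts were 3 for LN-LEC, 3 for D-LEC and 6 not called, and between D-LEC and LN-BEC 4 for D-LEC, 3 for LN-BEC and 5 not called. Median log2 differences in the 3 comparisons were -0.07, -0.16 and 0.14. For Vwf, LN-BEC exceeded LN-LEC 48.2-fold (log2 fold change of LN-LEC minus LN-BEC -5.59, SE 0.27, edgeR adjusted p = 9.23e-08), and LN-LEC and D-LEC differed by -0.33 (95% interval -0.94 to 0.27). Myrip, a linker of these granules to actin, followed the order of Selp, with mean normalized counts of 1593 in LN-BEC, 276 in LN-LEC and 4.32 in D-LEC. Unc13d, a factor of granule release, had a level in LN-LEC 11.8-fold that of LN-BEC (log2 fold change 3.57, SE 0.36, edgeR adjusted p = 5.71e-06).

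For each of the 8 genes, the genes whose log2 levels were most alike over the 10 libraries were sought by Pearson's r. The points share their library and fall into 3 populations, so that a gene with the same order of populations can score high. Vcam1 was most like Casp1 (r = 0.999), Madcam1 most like Csf2rb (r = 0.997), and Selp most like Cd93 (r = 0.998). Icam1 was most like Fmnl1 (r = 0.990), followed by Cd74 (r = 0.989). Pecam1 was most like Kcna3 (r = 0.993), which had a mean normalized count of 8.96 in LN-BEC and 0 in both LEC populations. Sele was most like Ikzf3 (r = 0.988), which averaged 36.9 in LN-BEC, 4.08 in LN-LEC and 0.333 in D-LEC. The likenesses to Kcna3 and Ikzf3 rest on genes with few or no counts outside LN-BEC. Icam2 and Cd99l2, which varied least, had the lowest best values, 0.967 with Eef2 and 0.957 with Lamp1.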

How the data were processed

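The authors used Fastx-trimmer on the reads, STAR for alignment to mm9 and featureCounts 1.4.4 for fragments on exons, without strand and without fragments that mapped to several places or genes. The deposited values are these raw counts, which were used as deposited, and cDNA had been made with an amplifying kit (Ovation RNA-Seq System V2). Libraries were grouped by their GEO labels, which give no batch, day or pairing, and replicate numbers follow the order of the records. Symbols of predicted genes and clones (3792 of 23284) were left out, and a gene was tested at a mean normalized count of at least 1 in at least 1 population (15358 genes). edgeR 4.0.16 in R 4.3.3 fitted 1 mean per population to all 10 libraries (TMM, robust quasi-likelihood F test), with Benjamini-Hochberg adjustment over all genes tested and a threshold of 0.05. Levels are counts divided by the size factors of DESeq2 1.42.0, and levels of different genes are compared only per kilobase of exon. The fit was tested on simulated data. Each library is a pool of mice, so p-values measure the spread between pools. Libraries held 22429940 to 48906070 fragments. Log2 levels correlated at 0.973 to 0.987 within a population, and no pair of libraries agreed within sampling noise. Alternatives were DESeq2, RLE and upper-quartile factors, library totals alone, other filters, predicted genes kept, a fit of 2 populations, no robust moderation, and libraries left out.

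The 8 genes and the lists were chosen with earlier results of these data known. Genes named beside the 8 were, per list and comparison, at most 4 called genes, taken by the size of the log2 fold change, genes whose product binds 1 of the 8, neighbours of the 8 in the genome, and the 3 genes most alike over libraries. The older symbol Darc was matched to Ackr1 by a table of gene names. Promoter windows were read with Python 3.11.15 from NCBIM37 (mm9) at the starts the count table gives. One item is not reported here.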

Additional observations from a re-analysis of the deposited data

How the results depend on the processing

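Of the 24 differences (8 genes in 3 comparisons), 19 kept their side of the threshold under all 20 alternatives, among them every difference of Icam1, Vcam1, Madcam1, Selp and Pecam1. Differences near 0 that were not called could change sign. For Icam1 the log2 fold change of LN-LEC minus LN-BEC ran from -0.06 to 0.20. For Pecam1 that of LN-LEC minus D-LEC ran from -0.07 to 0.07. For Icam2, at -0.20 in the main fit, that of LN-LEC minus LN-BEC ran from -0.24 to 0.003. No called difference changed sign. The other 5 were those of Icam2 from LN-BEC in both LEC populations, of Cd99l2 in LN-LEC against both others, and of Sele between the LEC populations. Icam2 in D-LEC against LN-BEC was also not called with library totals alone (log2 fold change -0.06, edgeR adjusted p = 0.633). The number of the 8 genes called ranged over the alternatives from 5 to 7 in LN-LEC vs LN-BEC, from 4 to 5 in LN-LEC vs D-LEC and from 6 to 7 in D-LEC vs LN-BEC, and that of all genes from 5071 to 6624, 6236 to 7790 and 6578 to 8183. Library totals alone moved the median log2 difference of all genes by 0.20 in LN-LEC vs LN-BEC and by 0.19 in D-LEC vs LN-BEC, and the share of calls that were higher in the first population from 51.9% to 69.0% and from 46.7% to 60.5%. The cause was not tested. No paired analysis was possible because the labels give no replicate numbers shared between populations. Depth limits Madcam1, Icam4 and Icam5 in D-LEC, where a library held 0 to 11 counts of each. It also limits Icam4 and Icam5 in LN-LEC, with 13 and 3 counts over all libraries, and Icam4 in LN-BEC, with 22.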
